A study of Homo sapiens with 4 samples.

Results

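The lysosomal hydrolases and membrane proteins comprised 35 genes, chosen by name from general knowledge of the lysosome, with earlier results of these data known, out of 19140 genes tested. They fall into 10 proteases (the cathepsins and legumain), 11 glycosidases, 5 sulfatases (with the sulfamidase SGSH among them), 5 genes of lipid hydrolysis, 2 other hydrolases and 2 membrane glycoproteins. All 35 were found among the probe sets that the platform's table pairs with 1 gene symbol, with CTSL1 listed there under its newer symbol CTSL. The cells were Huh7, a human hepatocellular carcinoma line. One group received siNF90, a small interfering RNA directed at the double-stranded RNA binding protein NF90 (nuclear factor 90), and the other the control siNTC. Each group had 2 arrays, and the labels do not say whether these came from separate cultures, so that p-values reflect the spread among these arrays and this may be technical only. The dose, the time after transfection and the number of siRNA sequences are not stated in the labels. Depletion was taken from the labels, the NF90 gene itself being not analysed here.

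Lysosomes break down proteins, glycans, lipids and nucleic acids with hydrolases that work at acid pH. Most of these enzymes receive a mannose 6-phosphate tag in the Golgi, are carried to the lysosome by mannose 6-phosphate receptors, and mature there by proteolysis. The limiting membrane is lined by heavily glycosylated proteins, chiefly LAMP1 and LAMP2, and holds the vacuolar ATPase, which acidifies the lumen. Many lysosomal genes carry an element called CLEAR in their promoters, which is bound by basic helix-loop-helix factors of the MiT family and has the core CACGTG. In hepatocytes lysosomes also take part in lipoprotein and lipid droplet turnover.

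Promoter sequences were searched for this core, to show which members carry it. RefSeq promoters (build GRCh38.p14, 250 bases before to 50 after each annotated start) matched 24 of the 35 members, with 29 promoters in all. The core CACGTG reads the same on both strands and was present in 8 of the 24 members, or 33.3%, against 8.77% of the 27305 genes in the table and 7.26% of its 35116 promoters. The longer TCACGTGA, which contains that core, was present in 4 members (16.7%, against 1.18% of genes), namely CTSA, LAMP1, GAA and GALNS. Stretches from before the start are given for CTSA and NEU1, the 2 members that an unweighted test of unequal probe sets called. Both calls were lost with weighting. Stretches are also given for LAMP1, which held the most copies, and for GAA and GALNS, which hold the longer form. Those of CTSA, LAMP1 and GAA run up to the start, while those of NEU1 and GALNS end farther before it. Each is written 5′ to 3′ on the strand of its gene, with the core in capitals.
CTSA, chr20:45891085-45891334, plus strand: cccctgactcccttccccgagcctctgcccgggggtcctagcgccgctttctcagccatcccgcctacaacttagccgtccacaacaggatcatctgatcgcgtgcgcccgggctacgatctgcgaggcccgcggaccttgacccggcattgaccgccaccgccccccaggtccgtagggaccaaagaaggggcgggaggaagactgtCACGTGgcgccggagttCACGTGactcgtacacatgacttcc
NEU1, chr6:31862912-31862981, minus strand: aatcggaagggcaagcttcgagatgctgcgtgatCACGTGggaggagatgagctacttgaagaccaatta
LAMP1, chr13:113296989-113297238, plus strand: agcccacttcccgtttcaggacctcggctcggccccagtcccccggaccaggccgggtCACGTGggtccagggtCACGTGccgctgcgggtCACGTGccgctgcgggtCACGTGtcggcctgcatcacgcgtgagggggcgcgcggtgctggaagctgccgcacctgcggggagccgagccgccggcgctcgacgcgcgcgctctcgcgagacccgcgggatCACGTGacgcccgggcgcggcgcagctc
GAA, chr17:80101481-80101580, plus strand: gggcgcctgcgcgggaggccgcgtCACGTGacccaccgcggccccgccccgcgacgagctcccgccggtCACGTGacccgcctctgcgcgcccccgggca
GALNS, chr16:88857068-88857147, minus strand: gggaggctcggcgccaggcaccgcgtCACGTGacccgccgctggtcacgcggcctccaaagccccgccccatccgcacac
CTSA held 2 copies, whose first bases lie 42 and 25 bases before the start. The NEU1 copy has its first base at -126 from the start. GALNS held 2 copies, at -174 and -32 from the start, and only that at -174 lies in the stretch shown. LAMP1 held 6 copies, 5 of them in the stretch shown and the last across the start itself. A match is a description of these letters and does not show that a factor binds there. Many lysosomal genes are known to carry the element, so the larger share among the members is not a result of these data.

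Messenger RNA was measured on 1 array per sample, and the deposited values are log2 values after the authors' RMA processing. A gene value is the mean of its probe sets whose mean over the 4 arrays reached the 40th percentile of all probe sets, a log2 value of 2.13. For the members this kept 553 of 608 probe sets. A difference is siNF90 minus siNTC in log2 units, tested with limma over all 19140 genes and adjusted by the Benjamini-Hochberg method, with a threshold of 0.05. Pairs of arrays had a Pearson's r from 0.936 to 0.958 across all genes and from 0.960 to 0.989 across the members, where genes are not independent replicates. Across all genes the highest r was between the first arrays of the different groups, against 0.957 for the siNTC pair and 0.950 for the siNF90 pair. Across the members the siNTC pair had the lowest r and the siNF90 pair the highest. All 12 hepatocyte markers tested had mean levels above the median of all genes, against 2 of 10 macrophage, 2 of 9 fibroblast or stellate cell and 0 of 7 endothelial markers. Of the 12 hepatocyte markers, 7 had negative differences between the groups, with a median of -0.088. In siNF90, 6 of them lay lower and 3 higher without overlap, where 22% of all genes lay lower and 19.2% higher. The log2 of the hepatocyte markers' summed level was 13.53 and 13.52 in siNTC and 13.46 and 13.45 in siNF90. Its part in the results was not tested. In cultures measured as bulk RNA, a change in the share of cells and a change in RNA per cell cannot be told apart.

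No member passed the test. The limma fit called 0 of the 35 members and 0 of all 19140 genes (0%). With limma's trend and robust prior it called 0 of the 35, against 48 of all genes (0.251%). At an unadjusted p under 0.05 there was 1 member, SMPD1, where 8.79% of all genes had such a p. The members' differences ranged from -0.55 for SMPD1 to 0.43 for CTSC, with 21 positive and 14 negative and a median of 0.097, beside a median of -0.018 over all genes. Their median absolute difference was 0.16, beside 0.22 over all genes. Both siNF90 arrays lay beyond both siNTC arrays in 17 members, or 48.6%, where 41.1% of all genes did. Of these 17, 11 were above, where 19.2% of all genes were, and 6 below, where 22% of all genes were. The second siNF90 array was lower than the first in 26 of 35 members, with a median gap of -0.20 over all 35, and over all genes it was lower in 11672 of 19140 genes, with a median gap of -0.090. The second siNTC array was lower than the first in 13 of 35 members, with a median gap of 0.071. Over all genes it was lower in 10236 of 19140, with a median gap of -0.030. The median difference of the members turned to -0.055 without the first siNF90 array, and to -0.059 without the first siNTC array.

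**Figure D1:**
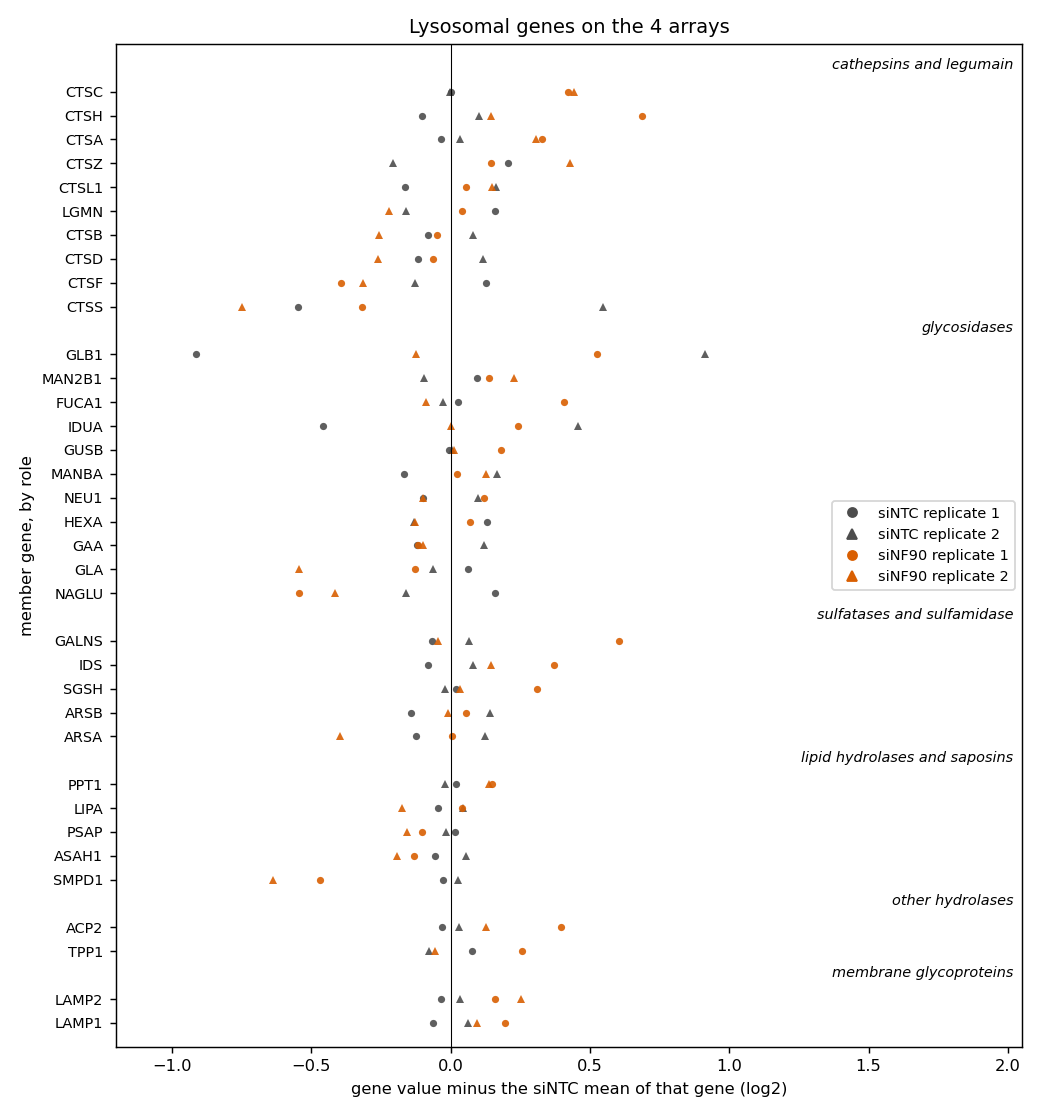
Gene values of the 35 members on the 4 arrays (x axis, log2, each gene's siNTC mean set to 0), grouped by role. Grey symbols are siNTC and orange symbols siNF90 arrays, circles replicate 1 and triangles replicate 2, and in 17 members the orange symbols do not overlap the grey ones.

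Among the cathepsins and legumain, 5 differences were positive and 5 negative. CTSA, a serine carboxypeptidase that also shields the glycosidases GLB1 and NEU1 from degradation in a shared complex, read 7.76 and 7.83 on the siNTC arrays and 8.12 and 8.10 on the siNF90 arrays. Its groups did not overlap, with a difference of 0.32 (SE 0.17, 95% interval -0.13 to 0.77) and a limma adjusted p of 0.649, and was 0.12 with the filter at the 60th percentile and 0.18 with the median of probe sets. CTSC, the dipeptidyl peptidase that activates granule serine proteases, had the tightest replicates of the larger differences, with 6.29 on both siNTC arrays and 6.72 and 6.74 on the siNF90 arrays. That is a difference of 0.43 (SE 0.17), or 1.35-fold, with an interval from -0.01 to 0.88 and a limma adjusted p of 0.570, or 0.270 with the trend and robust prior. The CTSC difference was 0.036 with the filter at the 60th percentile and 0.10 with the median of probe sets. CTSH, an aminopeptidase, read 4.92 and 5.13 in siNTC and 5.71 and 5.17 in siNF90, a difference of 0.42 (SE 0.25, limma adjusted p = 0.683). Most of the CTSH difference came from the first siNF90 array, the second being within 0.1 of the higher siNTC array, and without the first the difference was 0.15.

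In the opposite direction, CTSF, a cysteine protease, read 4.32 and 4.06 in siNTC and 3.80 and 3.88 in siNF90, a difference of -0.35 (SE 0.19, limma adjusted p = 0.649) without overlap. CTSS, the cysteine protease known for invariant chain cleavage in antigen-presenting cells, read 3.41 and 4.50 in siNTC and 3.64 and 3.21 in siNF90. Its siNTC arrays lay farther apart than the groups, whose difference was -0.53 (SE 0.42, limma adjusted p = 0.743). The widely expressed proteases CTSB, CTSD and CTSL1 overlapped between the groups. CTSB, an endo- and exopeptidase, read 7.84 and 8.0 against 7.87 and 7.66. CTSD, the main aspartic protease of the lysosome, read 7.50 and 7.74 against 7.56 and 7.36. CTSL1, which encodes cathepsin L, read 5.17 and 5.49 against 5.39 and 5.48. Each of these 3 groups of values overlapped, and so did those of CTSZ and LGMN. CTSZ, a carboxypeptidase, read 5.55 and 5.14 against 5.50 and 5.78. LGMN, the asparaginyl endopeptidase that processes several cathepsins, read 7.08 and 6.76 against 6.96 and 6.70.

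The single probe sets of CTSA had unequal differences, but none passed singly, and the test of their inequality did not pass once they were weighted by the spread at their level. Of its 18 probe sets, 16 reached the filter, and they are numbered here in the order of the deposited table, which the files do not tie to exons. Number 8 (16914360) read 2.15 and 1.40 in siNTC and 5.25 and 4.80 in siNF90, a difference of 3.25. Its siNTC values lay below the median of all probe sets, so no fold is given, and it reached the filter through the siNF90 arrays. Number 2 (16914354) went the other way, with 4.70 and 5.53 in siNTC and 3.48 and 3.46 in siNF90, which is 3.13-fold lower. Both of these 2 had groups that did not overlap, where 38.3% of all single probe sets had none. Of the other 14 probe sets above the filter, 13 were higher in siNF90, with differences between -0.035 and 0.60 and a median of 0.22. Number 3 (16914355) led these, with 9.48 and 9.49 in siNTC and 9.97 and 10.19 in siNF90. Without numbers 2 and 8 the gene difference of CTSA was 0.25 (limma adjusted p = 0.713). These 2 were picked after seeing the data, so that fit serves as a description only.

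**Figure D2:**
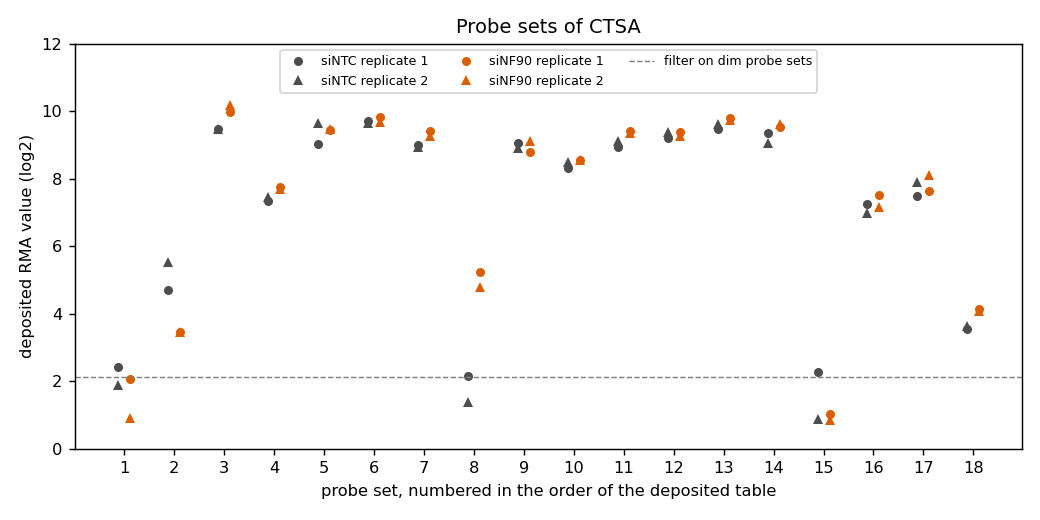
Deposited log2 values (y axis) of the 18 probe sets of CTSA (x axis, table order) on the 4 arrays, siNTC in grey and siNF90 in orange. Number 2 is lower and number 8 higher on both siNF90 arrays, while most of the others lie between 7 and 10 with small shifts, and the dashed line is the filter at 2.13.

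Tested singly, none of the 16 probe sets of CTSA passed over all 171120 probe sets (limma adjusted p = 0.629 for number 8 and 0.631 for number 2), where 0 passed in all (0%) and 7.38% had an unadjusted p under 0.05. With the trend and robust prior the limma adjusted p of these 2 was 0.458 and 0.563, and 11 of all probe sets passed (0.00643%). Numbers 8 and 2 did not stand apart with that prior. Number 3 had 0.412, below both, and numbers 7, 11 and 14 had 0.557, 0.563 and 0.563. A test of whether the probe sets of a gene differ by unequal amounts, limma's diffSplice with the Simes method, gave CTSA a false discovery rate of 1.1e-08. This was the smallest of 16175 genes, of which the test called 446 (2.76%). It included number 8, which reached the filter through the siNF90 arrays where it is high. NEU1 was the other of the 35 members it called, at a false discovery rate of 2.0e-05, or 0.0018 with identical probe sets counted once. With the filter at the 60th percentile NEU1 was not called (false discovery rate 0.312), and the members called were CTSA and PPT1. That test takes 1 spread for all probe sets of a gene, and the spread depended strongly on level. The SD within groups was 0.97 for probe sets at a mean level of 2.77 and 0.12 at a mean level of 10.39. At the level of number 8 it was 0.95 and at that of number 2 it was 0.80, against 0.14 for number 3. When probe sets were weighted by the spread at their level, a setting added after seeing the data, the false discovery rate was 0.383 for CTSA and 0.495 for NEU1, and 9 of 16175 genes were called (0.0556%). The calls of both genes were therefore lost with that weighting. With probe sets kept only where both group means reached the filter, which removed number 8 but kept number 2, the unweighted false discovery rate was 0.00044 for CTSA and 0.669 for NEU1. Without numbers 2 and 8 the unweighted value for CTSA was 0.968, a description only, since these 2 were picked for their differences.

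Of the 11 glycosidases, 7 had positive and 4 negative differences. NEU1, the sialidase of the CTSA complex, read 5.78 and 5.98 in siNTC and 6.0 and 5.78 in siNF90, with overlap and a difference of 0.01. That difference was 0.32 with the filter at the 60th percentile and 0.52 with the median of probe sets. The table gives NEU1 113 probe sets, which carry only 17 distinct sets of values, 15 of them above the filter. Of those 15, 11 were higher and 4 lower in siNF90. Number 11 (17017506) read 2.73 and 3.77 in siNTC and 1.48 and 0.94 in siNF90, and reached the filter through the siNTC arrays. Number 12 (17017507) read 5.19 and 5.06 in siNTC and 6.01 and 6.37 in siNF90, which is 2.09-fold higher. The groups of both did not overlap, in opposite directions, and their limma adjusted p was 0.633 and 0.638. The third member of the complex, the beta-galactosidase GLB1, had 1 probe set of its own and read 2.69 and 4.52 in siNTC and 4.13 and 3.48 in siNF90. Its siNTC arrays alone spanned the whole range.

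**Figure D3:**
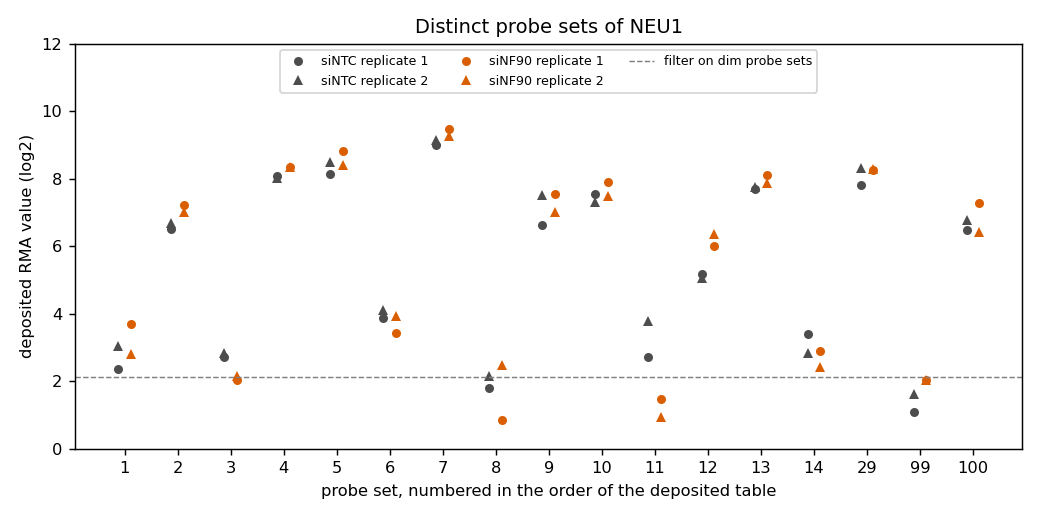
Deposited log2 values (y axis) of the 17 distinct probe sets of NEU1 (x axis, table order) on the 4 arrays, siNTC in grey and siNF90 in orange. Number 11 is lower and number 12 higher on both siNF90 arrays, and the brightest probe sets differ by less than 0.6.

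NAGLU, the alpha-N-acetylglucosaminidase of heparan sulfate breakdown, read 4.89 and 4.57 in siNTC and 4.19 and 4.32 in siNF90. Its groups did not overlap, 7 of its 9 probe sets were lower, and the difference was -0.48 (SE 0.20, 95% interval -1.01 to 0.05), with a limma adjusted p of 0.599. GLA, the alpha-galactosidase A that is deficient in Fabry disease, read 6.40 and 6.27 against 6.21 and 5.80, with all 10 of its probe sets lower. The GLA difference of -0.34 (SE 0.22) had a limma adjusted p of 0.699, and was -0.54 without the first siNF90 array and -0.13 without the second. GUSB, beta-glucuronidase, read 6.26 and 6.27 against 6.45 and 6.28, and MAN2B1, the acid alpha-mannosidase, 6.67 and 6.48 against 6.71 and 6.80. Both had siNF90 arrays above the siNTC arrays, by margins smaller than 0.1 at their closest.

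The other glycosidases overlapped between the groups. GAA, the acid alpha-glucosidase that degrades glycogen and is deficient in Pompe disease, read 5.73 and 5.98 against 5.74 and 5.76. HEXA, the alpha subunit of hexosaminidase A, read 5.92 and 5.67 against 5.86 and 5.67. MANBA, beta-mannosidase, read 6.27 and 6.61 against 6.46 and 6.57. In these 3 the replicates of siNTC were farther apart than the group means. FUCA1, the alpha-fucosidase, read 5.35 and 5.29 against 5.72 and 5.23. IDUA, the iduronidase of dermatan and heparan sulfate breakdown, read 3.20 and 4.11 against 3.90 and 3.65.

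Of the 5 genes that remove sulfate groups, 4 had positive differences, where 9090 of all 19140 genes did. IDS, iduronate 2-sulfatase, read 4.40 and 4.56 in siNTC and 4.85 and 4.63 in siNF90, a difference of 0.26 (SE 0.19, limma adjusted p = 0.732). SGSH, the heparan sulfamidase, read 4.71 and 4.67 against 5.0 and 4.72, with 7 of its 8 probe sets higher. Both had groups without overlap, which is 40% of these 5 genes, where 41.1% of all genes had none. In both the first siNF90 array was the higher. GALNS, which acts on keratan sulfate, read 4.44 and 4.57 against 5.11 and 4.46. Its second siNF90 array lay between the siNTC arrays. ARSB, which acts on dermatan sulfate, read 5.90 and 6.18 against 6.09 and 6.03, a difference of 0.02 whose sign changed in 4 of 11 alternative settings. ARSA, the sulfatase of myelin sulfatide, read 3.69 and 3.93 against 3.82 and 3.41.

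Of the 5 genes of lipid hydrolysis, 4 had negative differences, where 10050 of all 19140 genes did. SMPD1, the acid sphingomyelinase that makes ceramide from sphingomyelin, had the largest difference of the 35 members. It read 4.06 and 4.12 in siNTC and 3.62 and 3.45 in siNF90, and 9 of its 12 probe sets were lower. The difference of -0.55 (SE 0.18), or 1.47-fold lower, had a 95% interval from -1.02 to -0.08, an unadjusted limma p of 0.0295 and an adjusted p of 0.532. ASAH1, the acid ceramidase that acts on the product of SMPD1, read 7.19 and 7.30 against 7.11 and 7.06. PSAP, the precursor of the saposins that present sphingolipids to these enzymes, read 8.50 and 8.47 against 8.39 and 8.33. The groups of SMPD1, ASAH1 and PSAP did not overlap, and siNF90 was the lower in each, where 22% of all genes lay lower without overlap. The ASAH1 difference of -0.16 turned to 0.32 with the median of its probe sets in place of their mean, and that of PSAP was -0.13. LIPA, the acid lipase of cholesteryl esters and triglycerides, read 6.91 and 7.0 against 7.0 and 6.78, with overlap and a sign that changed without the second siNF90 array. PPT1, palmitoyl-protein thioesterase, was the 1 with a positive difference, at 7.37 and 7.33 against 7.50 and 7.49, and 14 of its 16 probe sets were higher. The groups of PPT1 did not overlap either, where 19.2% of all genes lay higher without overlap.

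The other hydrolases and the membrane proteins had small positive differences. TPP1, tripeptidyl peptidase, read 6.78 and 6.62 in siNTC and 6.96 and 6.65 in siNF90, with overlap. ACP2, the lysosomal acid phosphatase, read 3.85 and 3.91 against 4.27 and 4.01, a difference of 0.26 (SE 0.19, limma adjusted p = 0.727) without overlap. LAMP1 read 5.93 and 6.05 against 6.18 and 6.08, and LAMP2, which also serves chaperone-mediated autophagy, 7.09 and 7.16 against 7.28 and 7.37. Both membrane glycoproteins were higher on both siNF90 arrays, where 19.2% of all genes were, and in 11 of 14 and 11 of 16 probe sets. Their differences were 0.14 and 0.21 (limma adjusted p = 0.835 and 0.759), and that of LAMP1 was 0.56 with the median of its probe sets.

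Members with the promoter core had differences in both directions. The 8 members with CACGTG in a promoter were CTSA, CTSD, CTSF, GAA, NEU1, ARSB, GALNS and LAMP1. Of these, 5 had positive and 3 negative differences, with a range from -0.35 to 0.32 and a median of 0.018. The 16 matched members without the core had 13 positive and 3 negative differences, with a range from -0.55 to 0.43 and a median of 0.15. CTSC and SMPD1, at the 2 ends of the range, were both without it in this window.

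The wider lysosomal pathway was read from 6 further lists, of which 118 of 128 genes were tested. The limma fit called 0 of the 118, also with the trend and robust prior, and 13 had an unadjusted p under 0.05, 7 higher and 6 lower, where 8.79% of all genes had such a p, 671 higher and 1012 lower. Their median difference was 0.032. Among 28 further hydrolases and activators, 12 were positive and 16 negative. HGSNAT, the acetyltransferase that works between sulfamidase and NAGLU in heparan sulfate breakdown, read 6.73 and 6.83 in siNTC and 6.05 and 5.23 in siNF90. All 12 of its probe sets were lower, with a difference of -1.14 (SE 0.32), or 2.20-fold lower, and a limma adjusted p of 0.514. SUMF1, which activates all sulfatases by forming their catalytic residue, read 5.0 and 5.04 against 4.52 and 3.85. NAAA, an acid amidase of N-acylethanolamines, read 5.18 and 5.10 against 5.70 and 5.64. The siNF90 arrays lay below in the first 2 and above in the last, with SUMF1 at -0.84 (SE 0.28) and NAAA at 0.53 (SE 0.17).

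The 16 vacuolar ATPase subunits divided into 9 positive and 7 negative differences, with a median of 0.014. ATP6V1B2, a subunit of the cytosolic sector that hydrolyses ATP, read 7.21 and 6.90 in siNTC and 6.14 and 6.17 in siNF90, with 15 of 16 probe sets lower. This was the smallest trend and robust adjusted p in these lists, at 0.0649 in limma, with a difference of -0.90 (SE 0.20) and a main adjusted p of 0.514. TCIRG1, a membrane-sector subunit, read 5.47 and 5.21 against 6.04 and 5.80, with all 17 probe sets higher. ATP6V0E1, a small membrane-sector subunit, read 7.95 and 8.22 against 7.81 and 7.72. Of the 16 subunits, 4 lay above and 3 below the siNTC arrays without overlap. That is 43.8% of them, close to the 41.1% of all genes.

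Of 28 further membrane proteins and transporters, 22 had positive and 6 negative differences, with a median of 0.16, and in 10 the siNF90 arrays lay above and in 1 below, where over all genes 47.5% were positive, 19.2% lay above and 22% below. OSTM1, the partner of the chloride transporter CLCN7, read 5.25 and 4.68 in siNTC and 6.24 and 5.78 in siNF90. All 9 of its probe sets were higher, by 1.04 (SE 0.29) or 2.06-fold, with a limma adjusted p of 0.514. SLC17A5, the sialic acid exporter, read 5.77 and 5.74 against 6.27 and 6.16. CTNS, the cystine exporter, read 4.10 and 3.82 against 4.38 and 4.39. Both were without overlap, at 0.46 (SE 0.17) and 0.43 (SE 0.19), and neither passed (limma adjusted p = 0.562 and 0.608).

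Genes of mannose 6-phosphate tagging and sorting had 11 positive and 9 negative differences. IGF2R, the large mannose 6-phosphate receptor, read 6.49 and 6.35 in siNTC and 6.86 and 6.80 in siNF90, with 33 of 42 probe sets higher. AP1M1, a subunit of the AP-1 adaptor, read 5.22 and 5.31 against 5.83 and 5.69, and AP3B1, of the AP-3 adaptor, 6.45 and 6.69 against 6.08 and 6.14. The first 2 were above and AP3B1 below siNTC without overlap. Of the 18 MiT factors and nutrient sensing genes, 12 were positive and 6 negative. The Rag GTPases RRAGC and RRAGA, which recruit mTORC1 to the lysosome, differed in direction, at 0.55 (SE 0.19) and -0.56 (SE 0.21), the latter from 2 probe sets. FLCN, which acts on RRAGC, had 0.52 (SE 0.28).

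Of the 8 cathepsin inhibitors tested, 6 had negative differences, where 10050 of all 19140 genes did. The median was -0.21, with SERPINB3 counted. SERPINB3, an inhibitor of cysteine cathepsins, had 1 probe set, which read 3.48 and 4.34 in siNTC and 1.23 and 2.18 in siNF90. Its siNF90 mean lay below the filter, which it passed through the siNTC arrays alone, so no fold is given. SERPINB6 had -0.35 (SE 0.21) without overlap, where 22% of all genes lay lower without overlap. CST6, cystatin M, had -0.29 (SE 0.25) with overlap, at low mean levels of 3.04 in siNTC and 2.76 in siNF90.

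**Figure D4:**
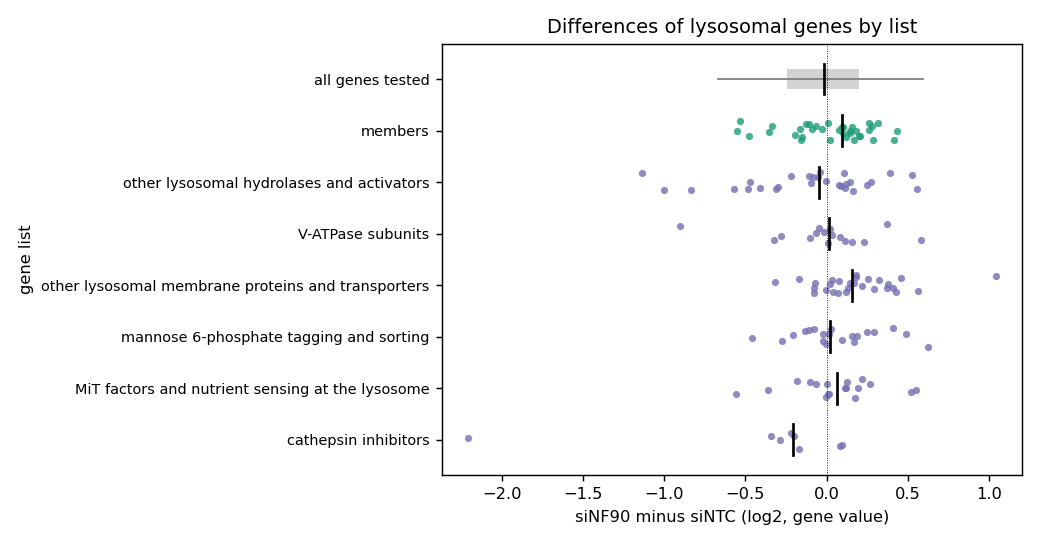
Differences of gene values, siNF90 minus siNTC in log2 units (x axis), for the 35 members (green) and 6 further lysosomal lists (purple), 1 point per gene, with black ticks at the medians. The grey bar spans the 25th to 75th percentile of all 19140 genes and the grey line their 5th to 95th percentile, and most lysosomal genes lie inside that line.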

How the data were processed

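Total RNA of 2 siNTC and 2 siNF90 samples was amplified, labelled with biotin and hybridised to arrays, per the labels' protocols. The deposited log2 values were made by the authors with RMA-sketch in Affymetrix Expression Console, per the labels. The log base was taken from the method and the range of the values. No program version or genome build is stated in the labels. The table held 352859 probe sets, of which 257971 were paired with 1 gene symbol and used, 17460 with several and 77428 with none. The platform's symbols can be old.

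Gene values, the filter and the test are as described above (limma 3.58.1 in R 4.3.3, two-sided, no covariate). Single probe sets were tested over the 171120 kept ones, and unequal probe sets with diffSplice. The scripts were tested on simulated data. Weights for the second form of diffSplice were the inverse of the mean variance within groups in 50 bins of level. The members, gene lists and tests were chosen with earlier results of these data known. All members were named, with fit statistics for the 10 with the smallest p, and from each further list the 3 genes with the smallest p. A fold is given only where both group means exceeded the median of all probe sets, 2.67. Same-numbered arrays were not paired (correlation of their deviations -0.0118). The number of arrays limits the precision.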

Additional observations from a re-analysis of the deposited data

How the results depend on the processing

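No member passed the threshold under any alternative run, and the replicate block called 0 genes in all, 0 members and 0 genes of the further lists. Over all genes 4 were called without the filter and 48 with the trend and robust prior. With the replicate block the count of genes with unequal probe sets was 287 in place of 446, and among the members it again called CTSA and NEU1. The settings with both group means at the filter, with weights and without the 2 CTSA probe sets were chosen after seeing the data. Leaving out the second siNTC or second siNF90 array gave 196 and 132 such genes, and leaving out the first siNF90 array 800. Among the members the count ranged from 2 to 4 over the arrays left out, was 1 with both group means at the filter and 0 with weighted probe sets. Members without overlap numbered 21 to 31 with an array left out, where 69.1% to 72.2% of all genes had none. The median difference of the members then ranged from -0.059 to 0.12.

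Settings that act on the variance alone are left out here, and 11 others gave a difference for each member. Requiring at least 50% of a gene's probe sets above the filter only drops genes, so it repeated every main difference. Counting identical probe sets once could move only NEU1 among the members. The counts that follow therefore include values that could not change. Over the 11 alternatives the sign held in 17 members, among them CTSA, CTSC, SMPD1, NAGLU, GLA, LAMP1 and LAMP2. It changed in 37 of 385 member values, none past the threshold, and the cause was not tested. Another 101 values kept the sign but moved by over 1.5 times, in 31 members. SMPD1 ranged from -0.67 with the median of probe sets to -0.38 without the filter, ACP2 from 0.10 with that median to 0.40 without the second siNF90 array, and IDS from 0.15 without the first siNF90 array to 0.44 at the 60th percentile. CTSF was -0.22 without the first siNTC array. A filter raised to the 60th percentile gave differences of 0.062 for CTSB, 0.019 for LGMN, 0.025 for HEXA, -0.26 for IDUA, -0.20 for ARSB and -0.070 for TPP1. With the median of probe sets they were 0.069 for CTSB, -0.038 for CTSL1, -0.098 for CTSZ, 0.15 for LGMN, 0.15 for GAA, -0.026 for ARSB, -0.020 for GALNS, 0.32 for ASAH1 and -0.036 for TPP1. Without the filter they were -0.0055 for NEU1 and 0.015 for ARSA. With each array left out the range was -0.40 to 0.0062 for ARSA, -0.12 to 0.16 for ARSB, -0.059 to 0.27 for CTSL1, -1.08 to 0.016 for CTSS, -0.089 to 0.41 for FUCA1, -0.23 to 0.014 for GAA, -0.044 to 0.60 for GALNS, -0.71 to 1.12 for GLB1, -0.16 to 0.10 for HEXA, -0.34 to 0.58 for IDUA, -0.25 to 0.070 for LGMN, -0.17 to 0.040 for LIPA, -0.091 to 0.24 for MANBA, -0.098 to 0.12 for NEU1 and -0.055 to 0.26 for TPP1. The SD within groups was 0.97 for probe sets at a mean level of 2.77 and 0.12 at 10.39, which limits the precision of dim genes.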
